A study of Mus musculus with 4 samples.

Results

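The genes described here are the type I interferon response genes of cultured mouse melanocytes, a list of 42 interferon-stimulated genes that leaves out antigen presentation genes and the interferon-induced GTPase families, except Mx1 and Mx2. The list was set by gene name, with earlier results of these data known, so its counts are descriptions. Of the 42 genes, 40 had a probe set of their own among the 18193 genes measured. Isg15 had only a probe set that the annotation gives to several genes, and Ifi44 is not analysed here. The cells were melan-a, an immortal line of mouse melanocytes that is grown with the phorbol ester TPA and cholera toxin. For the experiment the cultures were starved of these factors in medium with dialyzed serum. Total RNA of 4 cultures was hybridised to Affymetrix arrays, 1 array per condition. Hmhi cells were starved for 14 days, or starved with 100 ng/ml EGF for the same time. Hmhi-Miz1 kd cells, also labelled Hmhi-pS-Miz1, and Hmhi-MYC-TA cells received the same EGF treatment, so that all 3 EGF cultures and the starved culture share the Hmhi background. The labels do not spell out Hmhi, pS-Miz1 or MYC-TA and do not say whether a line is a clone or a pool. The series title names Myc, Miz-1 and senescence of melanocytes, and the design contrasts EGF with starvation and both modified lines with the Hmhi line under EGF.

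Type I interferons are secreted when a cell senses foreign or misplaced nucleic acid, and they bind a receptor made of IFNAR1 and IFNAR2. The receptor-bound kinases JAK1 and TYK2 phosphorylate STAT proteins, which join IRF9 and bind the interferon-stimulated response element (ISRE) at the promoters of antiviral genes. The products include sensors, activators of RNase, translation blockers and feedback inhibitors, and melanocytes, like most nucleated cells, carry the receptor.

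Promoter windows of RefSeq (build GRCm38.p6, from 250 bases before to 50 bases after each transcript start) matched 32 of the 42 genes by symbol. No window was matched for Usp18, Rtp4, Oas2, Ifi27l2a, Mx1, Mx2, Parp9, Parp14, Zbp1 and Dhx58. The ISRE core was searched as GAAANNGAAA on both strands, and overlapping matches counted for a gene once. It was present in 13 of the 32 genes, 40.6%, against 3.99% of 27025 genes with a window. By window it was in 14 of the members' 39, 35.9%, against 3.44% of 32851. The gamma-activated sequence (GAS) core, searched as TTCNNNGAA on both strands, was present in 7 of the 32 genes, 21.9%, against 9.55% of all genes with a window and 8.3% of windows. Both cores were found for Bst2, Oas1a and Eif2ak2. The stretches with the ISRE core are shown for the 7 genes that were at least 2-fold higher with EGF and had a match, and for Ifit3, which had matches and was under 2-fold higher with EGF, at 0.09. They are written 5′ to 3′ on the gene's strand, and capitals mark the matches in either orientation.

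Bst2, chr8:71537572-71537617, minus strand: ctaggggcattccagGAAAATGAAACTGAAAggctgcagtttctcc

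Rsad2, chr12:26456548-26456587, minus strand: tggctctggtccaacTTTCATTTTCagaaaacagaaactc

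Trim12c, chr7:104353354-104353393, minus strand: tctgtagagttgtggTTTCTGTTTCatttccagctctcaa

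Ifit1, chr19:34640770-34640828, plus strand: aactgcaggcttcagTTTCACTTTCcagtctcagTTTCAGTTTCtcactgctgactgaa

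Trim30a, chr7:104465205-104465244, minus strand: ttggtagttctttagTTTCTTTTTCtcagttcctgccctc

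Ddx60, chr8:61928019-61928086, plus strand: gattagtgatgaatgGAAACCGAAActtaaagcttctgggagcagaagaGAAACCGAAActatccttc

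Oas1a, chr5:120907526-120907560, minus strand: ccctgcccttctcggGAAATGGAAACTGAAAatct

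Ifit3, chr19:34583358-34583431, plus strand: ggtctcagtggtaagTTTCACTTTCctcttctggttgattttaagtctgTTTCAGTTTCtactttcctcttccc

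Of the genes with the core, 12 were measured, and 7 were at least 2-fold higher with EGF in Hmhi cells, against 7.98% of all genes. The median log2 difference of the 12 was 1.67. Of the 18 measured genes without the core, Oasl1, Oasl2 and Lgals3bp were at least 2-fold higher, and the median was 0.46. Bst2, Rsad2 and Ifit1, whose stretches carry 2, 1 and 2 matches, were among the former, and so were Trim12c and Trim30a, with 1 match in each stretch. A second Trim30a window has a further match after its transcript start, which is not printed. Against Hmhi EGF, 6 of the 12 genes with the core were at least 2-fold lower in the array labelled Miz1 kd. So were 5 of the 18 without it, against 2.5% of all genes, and the medians were -1.015 and -0.233. For MYC-TA minus Hmhi EGF the medians did not separate, at -0.395 with the core and -0.450 without it. There 3 of the 12 and 2 of the 18 were at least 2-fold lower, against 1.65% of all genes. Split by the GAS core, the medians with EGF were close, at 0.497 with it and 0.565 without it. The counts by core used no level filter, while the shares of all genes are over those that passed the filter given below. Sp100 and Epsti1 are among the 18 and read below the array median throughout. Genes without a matched window stand outside this split. Among them, Usp18, Rtp4, Oas2, Ifi27l2a, Mx1, Mx2 and Dhx58 were at least 2-fold higher with EGF. A match describes these letters in a window and is not a measured binding site.

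The target of the knockdown was examined first. The brighter probe set of Zbtb17, the gene of Miz-1, read 8.73 on the starved array, 8.72 on the Hmhi EGF array, 9.08 on the array labelled Miz1 kd and 8.71 on the MYC-TA array. Its second set read 6.50, 6.50, 6.72 and 6.78 in that order, so neither set was lower in the array labelled Miz1 kd. Every direction given for that array is therefore that of the array as labelled. All levels are log2 signals as deposited, with a median of 6.66 on each array. A difference of 1 is a 2-fold difference, and genes were compared where the brighter array of the pair reached its own median of non-control sets. With no replicates no difference was tested, and each one compares 2 arrays. The only spread available is technical, an SD between the probe sets that share a gene, and it holds no variation between cultures. This SD was 0.32, 0.22 and 0.26 for Hmhi EGF minus Hmhi starved, labelled Miz1 kd minus Hmhi EGF and MYC-TA minus Hmhi EGF. It was 0.42, 0.31 and 0.41 for labelled Miz1 kd minus Hmhi starved, MYC-TA minus Hmhi starved and MYC-TA minus labelled Miz1 kd. Of the melanocyte markers, whose levels also differed between arrays, 6 of 7 lay above the median on every array, and Tyr, the gene of tyrosinase, lay below it on all 4.

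Hmhi EGF was the array in which most interferon response genes were highest. Among the 38 that reached the median on at least 1 array, 31 were highest there, 81.6%, against 11.7% of the 11805 genes that passed on the same terms. None of the 38 was lowest in Hmhi EGF, where 14.8% of all genes were lowest. Hmhi starved held the lowest level of 19 of the 38, 50.0%, against 34.9% of all genes. The array labelled Miz1 kd held the lowest level of 10, 26.3%, against 28.2%, and MYC-TA of 9, 23.7%, against 22.1%. Shares in these last arrays were thus near those of all genes. Genes highest elsewhere were Irf7, Eif2ak2, Zbp1 and Samd9l in Hmhi starved, Irf1 and Uba7 in the array labelled Miz1 kd, and Ifit2 in MYC-TA. Sp100 and Epsti1 were below the median on all 4 arrays, between 5.75 and 6.37. As RNA came from whole cultures, fewer cells that express a gene and less RNA per cell cannot be told apart.

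**Figure D1:**
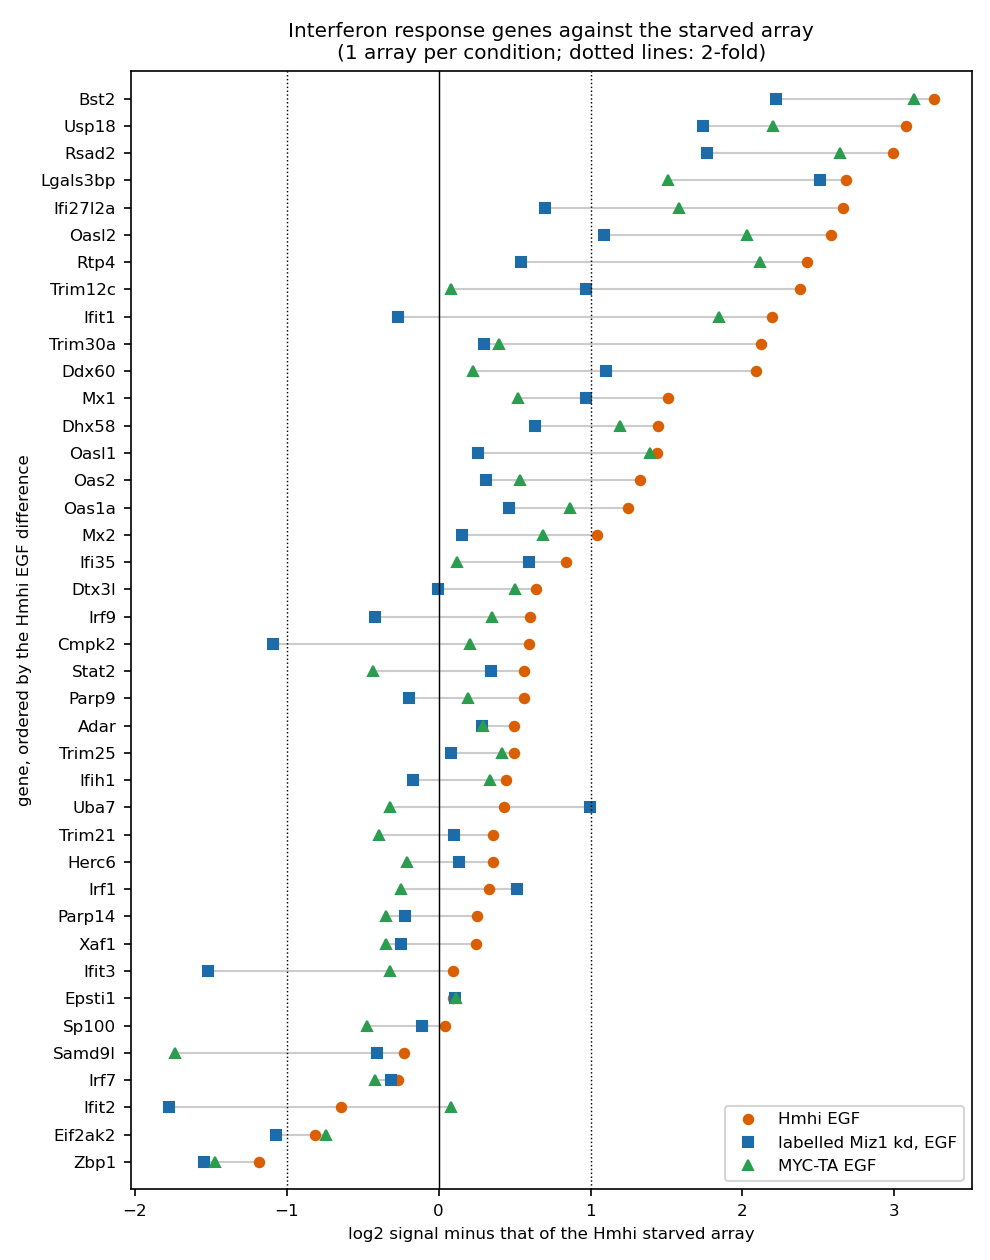
The horizontal axis plots, for each of the 40 measured interferon response genes, the log2 signal on each of the 3 EGF arrays (Hmhi circles, labelled Miz1 kd squares, MYC-TA triangles) minus that on the Hmhi starved array, with 1 array per condition and dotted lines at 2-fold. Genes are ordered by the Hmhi EGF difference, from Bst2 at 3.26 to Zbp1 at -1.18, and the circle lies to the right of both other symbols for most genes.

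With EGF, 17 of the 38 interferon response genes that passed the level filter were at least 2-fold higher in Hmhi cells than without it, 44.7%, against 7.98% of all genes that passed. Zbp1 was the 1 member at least 2-fold lower, 2.63%, against 4.96% of all genes. The median log2 difference was 0.62 over the members that passed and 0.60 over all 40 measured, and 0.01 over all genes. Positive differences were found for 33 of the 38. With the filter raised to the 75th percentile, 9 of the 25 members that passed were at least 2-fold higher. The share of all genes under that filter was not computed. Leading genes came from several roles, among them membrane effectors, the oligoadenylate synthetase family and the ISG15 protease.

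The largest difference was that of Bst2, which encodes tetherin, a membrane protein that holds budding virus particles at the cell surface. Bst2 read 8.98 on the starved array, 12.24 on the Hmhi EGF array, 11.20 on the array labelled Miz1 kd and 12.11 on the MYC-TA array. It was 9.58-fold higher with EGF in Hmhi cells, and all 3 EGF arrays lay above the starved one. Rsad2, the gene of viperin, which makes a chain-terminating nucleotide, read 8.77, 11.76, 10.54 and 11.42 in the same order. Its 3 probe sets gave log2 differences of 2.84, 3.13 and 2.99 with EGF, so the sets lay close together and again all 3 EGF arrays were high. Rtp4, a chaperone of membrane receptors that also binds RNA of viruses, read 9.69, 12.11, 10.23 and 11.80. Its level with EGF was high in Hmhi and MYC-TA cells, and in the array labelled Miz1 kd it lay 0.54 above the starved level. A dimmer set of Rtp4, below the median on every array, had a difference of 0.57 with EGF.

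The Mx genes encode dynamin-like GTPases that act on viral nucleoproteins. Mx1 read 8.23 on the starved array, 9.74 on the Hmhi EGF array, 9.20 on the array labelled Miz1 kd and 8.75 on the MYC-TA array. Mx2 read 7.37, 8.42, 7.53 and 8.06 in that order. Both were highest in Hmhi EGF, by 1.51 and 1.04 over starved, but MYC-TA was the lower of the modified lines for Mx1 and the higher for Mx2. Samd9l, an inhibitor of translation and of growth, differed from these effectors. It read 11.01, 10.78, 10.60 and 9.27, with its level in MYC-TA well under those of the other arrays. Cmpk2, a mitochondrial nucleotide kinase, read 8.08, 8.67, 6.99 and 8.28, lowest in the array labelled Miz1 kd.

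All 4 genes of the oligoadenylate synthetase family were at least 2-fold higher with EGF, with a median of 1.38. The synthetases make the second messenger that activates RNase L, and the Oasl proteins are relatives of them. Oasl2 read 5.69 on the starved array, 8.28 on the Hmhi EGF array, 6.78 on the array labelled Miz1 kd and 7.72 on the MYC-TA array. It was below the median in starved cells, so its difference of 2.59 rests on a dim level. Oasl1 read 7.19, 8.62, 7.45 and 8.58, near its Hmhi EGF level in MYC-TA and near its starved level in the array labelled Miz1 kd. Oas2 read 6.72, 8.04, 7.03 and 7.25, and Oas1a read 7.41, 8.66, 7.87 and 8.28. For each of these 4 genes the order of the arrays was Hmhi EGF, MYC-TA, labelled Miz1 kd and Hmhi starved, from high to low. Oas1a belongs to a group of close paralogs, and its probe set may share signal with them.

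The Ifit proteins bind foreign RNA and block its translation. Ifit1 read 8.06 on the starved array, 10.26 on the Hmhi EGF array, 7.80 on the array labelled Miz1 kd and 9.91 on the MYC-TA array. Ifit2 read 10.33, 9.69, 8.55 and 10.41, and Ifit3 read 10.29, 10.38, 8.77 and 9.97. Ifit1 alone of the 3 was at least 2-fold higher with EGF, at 2.20, while Ifit2 was at -0.64 and Ifit3 at 0.09. All 3 had their lowest level in the array labelled Miz1 kd.

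Of the genes of ISG15 conjugation, Usp18, the protease that removes ISG15 and also damps signalling at the interferon receptor, had the second largest difference of the members. It read 7.52 on the starved array, 10.59 on the Hmhi EGF array, 9.26 on the array labelled Miz1 kd and 9.72 on the MYC-TA array. This is 8.43-fold higher with EGF in Hmhi cells, with both modified lines in between. Uba7, the activating enzyme of ISG15, read 8.75, 9.18, 9.74 and 8.43, highest in the array labelled Miz1 kd and lowest in MYC-TA. Herc6, the ligase that attaches ISG15 in mice, was under 2-fold apart in all 6 comparisons of the 4 arrays on its brightest set. A dimmer set of Herc6 read 7.87, 8.27, 8.32 and 7.28, which is -1.04 for MYC-TA minus labelled Miz1 kd.

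Trim proteins are ubiquitin ligases, and several of them restrict viruses or adjust antiviral signalling. Trim12c, a relative of the restriction factor TRIM5, read 6.91 on the starved array, 9.30 on the Hmhi EGF array, 7.89 on the array labelled Miz1 kd and 6.995 on the MYC-TA array. Trim30a, which limits Toll-like receptor signalling, read 6.09, 8.21, 6.39 and 6.49. The genes were 5.21- and 4.36-fold higher with EGF in Hmhi cells, and in MYC-TA both lay within 0.40 of their starved level. A second set of Trim30a read 4.98, 7.61, 5.11 and 5.20, with the same order of arrays. Both genes have close paralogs beside them on chromosome 7, so their sets may share signal. Trim21 and Trim25, which were not 2-fold apart in any of the 6 comparisons, had differences of 0.36 and 0.49 with EGF.

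The remaining genes with 2-fold differences act in other ways. Lgals3bp, a secreted glycoprotein that binds galectins, read 10.27 on the starved array, 12.96 on the Hmhi EGF array, 12.78 on the array labelled Miz1 kd and 11.78 on the MYC-TA array. Of the 17 members higher with EGF, it was the one whose EGF level was best kept in the array labelled Miz1 kd. Ifi27l2a, a small membrane protein induced by interferon alpha, read 6.85, 9.51, 7.55 and 8.43, with both modified lines under Hmhi EGF. Parp9, Parp14 and Dtx3l, enzymes of ADP-ribosylation and their ubiquitin ligase partner, had differences of 0.56, 0.25 and 0.64 with EGF. Ifi35 and Xaf1 had 0.84 and 0.25. In all, 15 of the 40 measured members were under 2-fold apart in each of the 6 comparisons on their brightest set.

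Sensors of foreign nucleic acid were divided. Ddx60, a helicase that assists RNA sensing, read 5.90 on the starved array, 7.99 on the Hmhi EGF array, 7.01 on the array labelled Miz1 kd and 6.13 on the MYC-TA array. Dhx58, which encodes LGP2, a regulator of the RIG-I-like receptors, read 5.95, 7.39, 6.59 and 7.14. Both starved levels lay below the median, and in MYC-TA Ddx60 was near its starved level while Dhx58 was near its Hmhi EGF level. Zbp1, a sensor of Z-form nucleic acid, read 9.22, 8.04, 7.68 and 7.75 on its brighter set, which puts it lower on all 3 EGF arrays. Its other set had a difference of 0.08 with EGF, so the lower level was not found on both sets. Eif2ak2, which encodes the RNA-activated kinase PKR, read 8.76, 7.95, 7.69 and 8.02 on the brightest set, a difference of -0.82 with EGF. Its other sets gave 0.22 and 0.50, opposite in sign. Ifih1 and Adar, an RNA sensor and an RNA-editing enzyme, were under 2-fold apart in all 6 comparisons.

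None of the transcription factors of the pathway was at least 2-fold higher with EGF. Irf9, the DNA-binding partner of the STAT proteins, read 8.34 on the starved array, 8.94 on the Hmhi EGF array, 7.92 on the array labelled Miz1 kd and 8.69 on the MYC-TA array. It was the only one of the 4 that passed to reach 2-fold in any comparison, at -1.02 for the array labelled Miz1 kd minus Hmhi EGF. Irf1, Irf7 and Stat2 had differences with EGF of 0.33, -0.27 and 0.57. Irf7, which amplifies interferon production, was highest in Hmhi starved.

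Other values moved along with EGF. The 3 control sets of 18S rRNA had a median difference of 0.83 between Hmhi EGF and Hmhi starved, and of -0.31 and -0.21 for the array labelled Miz1 kd and for MYC-TA against Hmhi EGF. Leucocytes express many interferon response genes, and 7 of 8 listed markers of them were measured. Their log2 levels summed to 48.90 on the starved array, 48.14 on the Hmhi EGF array, 48.95 on the array labelled Miz1 kd and 46.90 on the MYC-TA array. Lyz2, the gene of the lysozyme of macrophages, was highest in Hmhi EGF, as many members were, at 11.87, 12.37, 11.89 and 10.74 in that order. Ptprc, the gene of the leucocyte antigen CD45, was below the median on all 4 arrays, as were Adgre1 and Itgam. Csf1r was at 9.41 in Hmhi starved and 6.74 in Hmhi EGF, while Cd68 was at 6.55 and 8.07, opposite changes that the sum does not show. Cd3e, unlike most members, was highest in the array labelled Miz1 kd. It read 6.96, 6.99, 7.38 and 7.13 on the starved, Hmhi EGF, labelled Miz1 kd and MYC-TA arrays. The melanocyte genes Dct and Pmel were also highest in Hmhi EGF and higher in MYC-TA than in the array labelled Miz1 kd. Dct read 9.79, 11.26, 9.19 and 11.08, and Pmel read 7.11, 8.62, 7.73 and 8.06. Other melanocyte markers went the other way with EGF, with Tyrp1 at -1.02, Mlana at -0.83 and Mitf at -0.90, and Sox10 was at -0.01. The median with EGF over the 6 melanocyte markers that passed was -0.42. Tyrp1, Mlana, Mitf and Sox10 were lower in MYC-TA than in the array labelled Miz1 kd, between -0.75 and -0.315. Dcn, the fibroblast gene of decorin, read 11.50, 10.35, 9.45 and 11.56, lowest in the array labelled Miz1 kd. Of the other listed fibroblast markers, Col1a1 and Lum were below the median on all 4 arrays and Col1a2 on 3. Pdgfra went the other way from Dcn with EGF, at 7.40, 8.21, 8.24 and 7.93. The part of the 18S rRNA, of leucocyte or fibroblast RNA and of a shift in melanocyte genes in these results was not tested.

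The array labelled Miz1 kd was set against Hmhi EGF. Each line is 1 culture on 1 array, so the Miz1 construct cannot be told apart from other differences between the cultures. Of the 38 members that passed, 15 were at least 2-fold lower, 39.5%, against 2.5% of all genes that passed. No member was at least 2-fold higher, against 0.29% of all genes. The median was -0.77 over the members that passed and -0.70 over all 40 measured, against 0.02 over all genes, and 36 of the 38 had a negative difference. Ifit1 had the largest one, 5.52-fold lower, followed by Ifi27l2a at 3.91-fold, Rtp4 at 3.69-fold, Trim30a at 3.54-fold and Cmpk2 at 3.21-fold lower. All 3 Ifit genes were at least 2-fold lower, with Ifit3 at -1.61 and Ifit2 at 2.20-fold lower. Of the oligoadenylate synthetase family, Oasl2, Oasl1 and Oas2 were at least 2-fold lower, at -1.50, -1.18 and -1.01, and Oas1a was at -0.78. Trim12c, Usp18, Rsad2, Bst2 and Irf9 completed the 15, at -1.41, -1.33, -1.22, -1.04 and -1.02. Uba7 and Irf1 were the members with a positive difference, at 0.56 and 0.18.

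Not all of these genes were ones that had been higher with EGF. Ifit2, Ifit3, Cmpk2 and Irf9 were under 2-fold apart between the Hmhi arrays and yet lower in the array labelled Miz1 kd. Their levels there were below the starved level as well, with differences of -1.78 for Ifit2, -1.52 for Ifit3, -1.09 for Cmpk2 and -0.42 for Irf9. Conversely 6 of the 17 members higher with EGF were under 2-fold lower in the array labelled Miz1 kd than in Hmhi EGF, namely Lgals3bp at -0.18, Mx1 at -0.54, Oas1a, Dhx58, Mx2 and Ddx60.

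**Figure D2:**
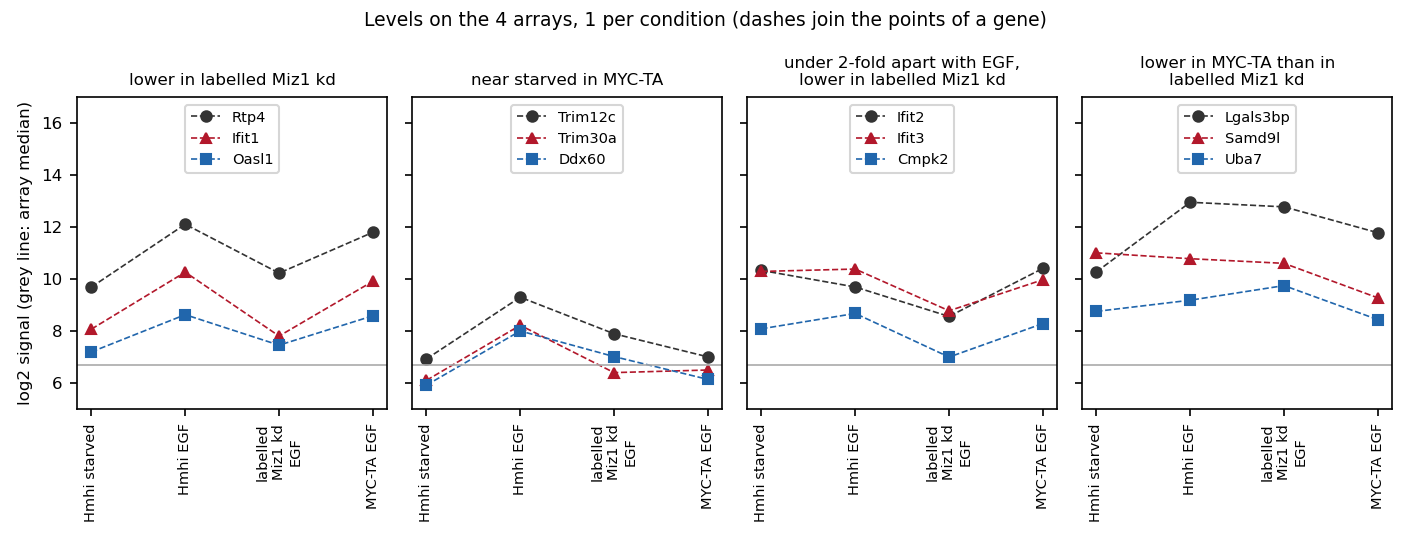
Each panel plots the log2 signal of 3 interferon response genes on the 4 arrays, 1 per condition, with a grey line at the array median of 6.66 and dashes that only join the points of a gene. Rtp4, Ifit1 and Oasl1 are lower in the array labelled Miz1 kd than in Hmhi EGF and MYC-TA; Trim12c, Trim30a and Ddx60 are near their starved level in MYC-TA; Ifit2, Ifit3 and Cmpk2 are lowest in the array labelled Miz1 kd, and Lgals3bp, Samd9l and Uba7 are lower in MYC-TA than in the array labelled Miz1 kd.

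MYC-TA was compared with the same Hmhi EGF array, so both modified lines share that array as their reference. Of the 38 members that passed, 6 were at least 2-fold lower in MYC-TA, 15.8%, against 1.65% of all genes that passed. None was at least 2-fold higher, against 1.3% of all genes. The median was -0.40 over the members, both those that passed and all 40 measured, and 0.04 over all genes. Trim12c was 4.92-fold lower, Ddx60 3.65-fold, Trim30a 3.31-fold, Samd9l 2.85-fold, Lgals3bp 2.26-fold and Ifi27l2a 2.12-fold lower. Uba7 was at -0.75 on its brightest set, but its dimmer sets were at least 2-fold lower, at -1.269 and -1.425. Stat2, Mx1 and Usp18 lay under the 2-fold mark, at -0.995, -0.991 and -0.875. At 1.5-fold in place of 2-fold the count was 15 of 38, and the share of all genes at that threshold was not computed. Bst2, Oasl1, Ifih1 and Trim25 were within 0.13 of their Hmhi EGF level, a gap smaller than the technical SD, which does not measure the spread between cultures. Ifit2, at 0.72, and Eif2ak2, at 0.08, were the members with a positive difference.

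Trim12c, Trim30a and Ifi27l2a were at least 2-fold lower than in Hmhi EGF in both modified lines. For Trim30a the differences were alike, 3.31-fold lower in MYC-TA and 3.54-fold lower in the array labelled Miz1 kd. Trim12c was lower by more in MYC-TA, and Ifi27l2a by more in the array labelled Miz1 kd. Both sets of differences subtract 1 array, and a deviation of that array alone would appear in both.

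**Figure D3:**
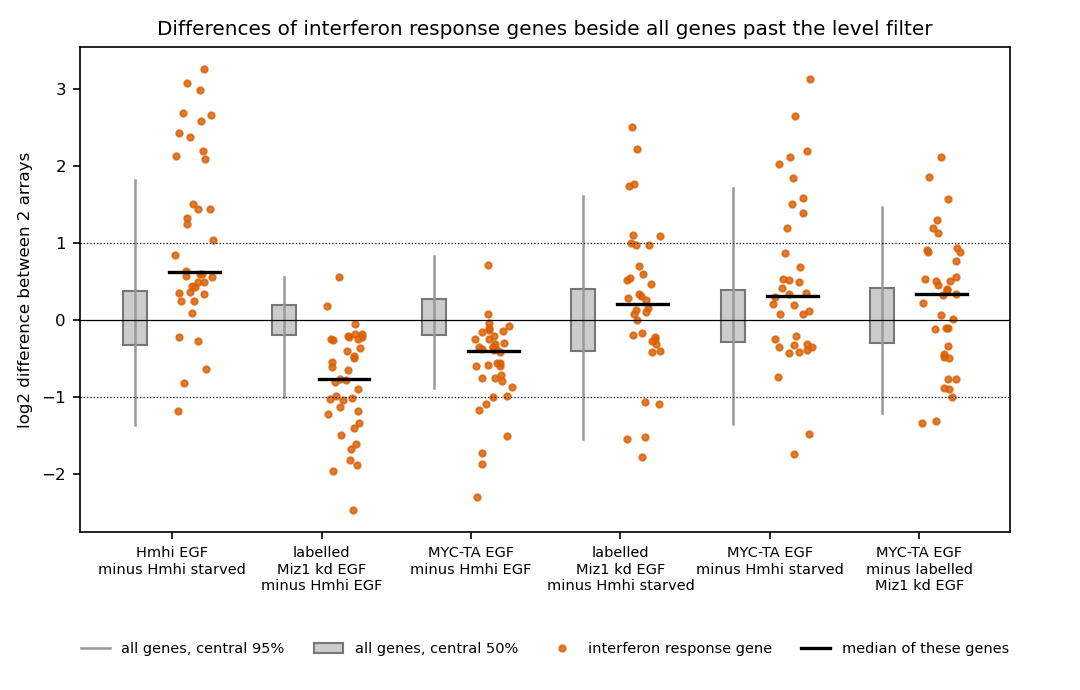
For each of the 6 comparisons of 2 arrays, points plot the log2 difference of each interferon response gene that passed the level filter, with a bar at their median, beside the central 50% (box) and 95% (line) of all genes that passed, and dotted lines mark 2-fold. The members' medians are 0.62, -0.77 and -0.40 in the comparisons with Hmhi EGF, and 0.21, 0.32 and 0.34 in those without it.

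For the 17 genes that were at least 2-fold higher with EGF, the level in each modified line was placed on the way from the starved to the Hmhi EGF level. On the log2 scale 0% is the starved level and 100% the Hmhi EGF level. The median position was 40.8% in the array labelled Miz1 kd, from -12.1% for Ifit1 to 93.4% for Lgals3bp. It was 69.6% in MYC-TA, from 3.44% for Trim12c to 97.0% for Oasl1. Of the 17 genes, 5 kept less than 50% in MYC-TA and 11 in the array labelled Miz1 kd, and 13 kept more in MYC-TA. Those that kept more in the array labelled Miz1 kd were Lgals3bp, Trim12c, Ddx60 and Mx1. Ifit1, Rtp4 and Oasl1 showed wide gaps between the modified lines, with 84.0%, 87.2% and 97.0% in MYC-TA against -12.1%, 22.3% and 18.2% in the array labelled Miz1 kd. Bst2, Rsad2 and Usp18 kept over 50% in both, at 68.0%, 59.0% and 56.6% against 96.1%, 88.5% and 71.6%. The starved level of Oasl2, Trim30a, Ddx60 and Dhx58 was below the array median, so their positions rest on dim readings. Because the genes were chosen by their Hmhi EGF minus Hmhi starved difference, a high reading on that array would lower both positions.

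**Figure D4:**
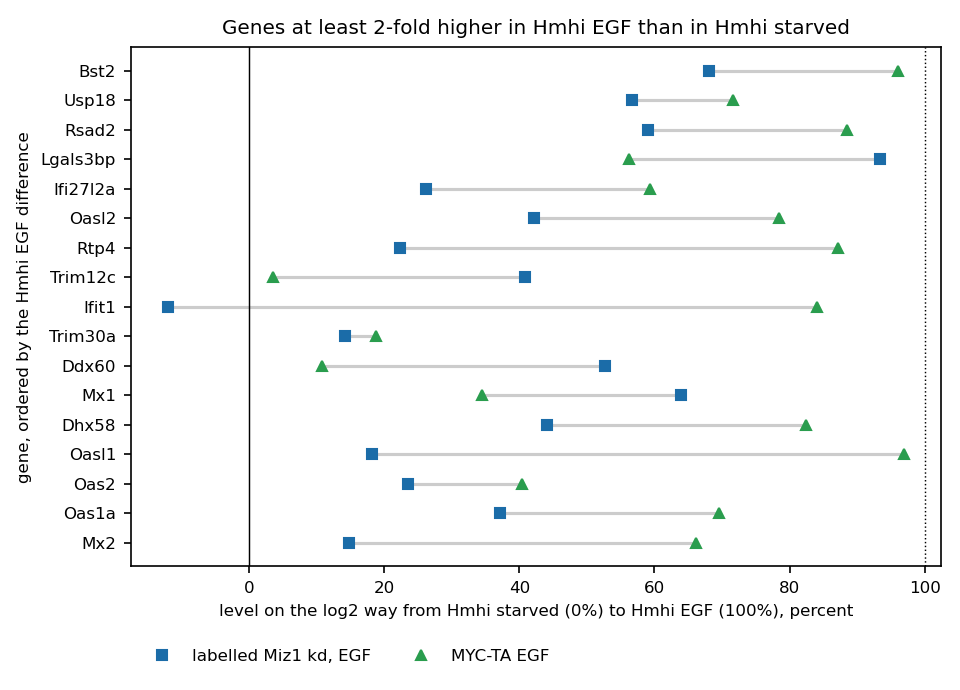
The horizontal axis plots, for the 17 interferon response genes at least 2-fold higher in Hmhi EGF, the level in MYC-TA (triangles) and in the array labelled Miz1 kd (squares) as a percent of the log2 way from Hmhi starved (0%) to Hmhi EGF (100%). The triangle lies to the right of the square for 13 of the 17 genes, and Trim12c, Ddx60, Mx1 and Lgals3bp lie the other way round.

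Bst2, Rsad2 and Usp18 stood above the starved level in both modified lines, while Ifit2 and Ifit3 were below it in the array labelled Miz1 kd. Against Hmhi starved, without the Hmhi EGF array, 6 of the 36 members that passed in the array labelled Miz1 kd were at least 2-fold higher, 16.7%, against 7.45% of all genes. These were Lgals3bp, Bst2, Rsad2, Usp18, Ddx60 and Oasl2, at 5.69-, 4.65-, 3.40-, 3.34-, 2.15- and 2.13-fold higher. At least 2-fold lower were 5 of the 36, 13.9%, against 7.42% of all genes, namely Ifit2, Zbp1, Ifit3, Cmpk2 and Eif2ak2, from 3.42-fold lower for Ifit2 to 2.10-fold lower for Eif2ak2. Zbp1 and Eif2ak2 rest on 1 of their sets, since their other sets were under 2-fold apart. In MYC-TA against the same starved array, 10 of 36 were at least 2-fold higher, 27.8%, against 8.33% of all genes. They were Bst2, Rsad2, Usp18, Rtp4, Oasl2, Ifit1, Ifi27l2a, Lgals3bp, Oasl1 and Dhx58, from 8.77-fold for Bst2 to 2.28-fold for Dhx58. Samd9l and Zbp1 were 3.33- and 2.78-fold lower, 5.56% of the 36, against 4.91% of all genes, a share near the background. Uba7 was at -0.32 there on its brightest set and at -1.08 and -1.44 on its dimmer sets.

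The modified lines, both with EGF, were also set against each other, which uses neither Hmhi array. Of the 37 members that passed, 6 were higher in MYC-TA by at least 2-fold, 16.2%, against 6.72% of all genes. Ifit1, Ifit2, Rtp4, Cmpk2, Ifit3 and Oasl1 made up the 6, at 4.33-, 3.62-, 2.98-, 2.45-, 2.29- and 2.19-fold. All 3 Ifit genes are thus among them. Samd9l and Uba7 were at least 2-fold lower in MYC-TA, at 2.52- and 2.48-fold, 5.41% of the 37, against 4.26% of all genes. All 3 sets of Uba7 were at least 2-fold lower in this comparison, between -1.31 and -1.48. The median over the members that passed was 0.34, and over all 40 measured 0.28, against 0.04 over all genes.

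Some members are neighbours in the RefSeq gene order. Rsad2 and Cmpk2 lie next to each other on chromosome 12 with no gene between them, but differed by 2.99 and 0.59 with EGF. Oasl1 and Oasl2, adjacent on chromosome 5, were both at least 2-fold higher with EGF and both at least 2-fold lower in the array labelled Miz1 kd. On chromosome 19, Ifit2 and Ifit3 are adjacent and 3 genes lie between Ifit3 and Ifit1, yet only Ifit1 of these 3 was at least 2-fold higher with EGF. Trim12c and Trim30a lie on chromosome 7 with 3 genes between them. Trim34a, outside the member list, lies on the same chromosome with 3 genes between it and Trim12c, and read 6.52 on the starved array, 9.004 on the Hmhi EGF array, 7.67 on the array labelled Miz1 kd and 7.02 on the MYC-TA array. Its order of arrays was that of Trim12c. Parp14, Dtx3l and Parp9 are adjacent on chromosome 16 and were under 2-fold apart in all 6 comparisons.

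More than 1 probe set was available for 21 members, and 11 of them had at least 2 sets past the filter between Hmhi EGF and Hmhi starved. The sets had the same sign for 8 of the 11 and opposite signs for Eif2ak2, Zbp1 and Uba7. In the array labelled Miz1 kd against Hmhi EGF, 8 of 11 had the same sign, and Trim21, Herc6 and Adar did not. In MYC-TA against Hmhi EGF, 10 of 11 had the same sign, with Trim25 as the exception. None of these genes except Zbp1 was at least 2-fold apart in the comparison in which its sets disagreed.

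Upstream of the response, ligands, receptors, signalling genes and sensors outside the members were read from 3 lists. On the brightest set of each gene, none that passed was 2-fold apart between a modified line and Hmhi EGF. The shares of all genes were 0.29% higher and 2.5% lower for labelled Miz1 kd, and 1.3% and 1.65% for MYC-TA. Only 7, 14 and 17 genes of the lists passed, so finding none is near these shares. Dimmer sets past the filter did reach 2-fold, for Tlr3 at -1.17 in the array labelled Miz1 kd, and for Irf3 at -1.09 and Stat3 at -1.08 in MYC-TA. Among 20 listed interferon ligands and receptors, 14 were measured, 7 lay below the median on all 4 arrays and 7 passed. Ifnb1, the gene of interferon beta, was below the median throughout, at 5.93 on the starved array, 5.65 on the Hmhi EGF array, 5.79 on the array labelled Miz1 kd and 5.77 on the MYC-TA array. Ifnar1 and Ifnar2, the chains of the receptor, read 9.06, 9.47, 8.997 and 9.67 and 11.33, 11.48, 11.04 and 11.58, and were under 2-fold apart between any of these arrays. Ifnlr1, a receptor chain for interferon lambda, was higher with EGF by 1.29, and Ifnz, a member of the interferon zeta family with close copies, by 1.61. Neither was 2-fold lower in a modified line, where Ifnlr1 read 9.14 and 8.52 against 8.82 in Hmhi EGF.

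Of 16 listed genes of JAK-STAT signalling and its inhibitors, 14 passed, 0 were at least 2-fold higher with EGF and 2 lower. Over all genes 7.98% were higher and 4.96% lower. Jak1, a receptor kinase, read 12.13, 10.64, 10.65 and 10.42, and was lower on every EGF array. Socs3, an inhibitor of cytokine signalling, read 12.47, 10.97, 11.68 and 10.47 in the same order. Tyk2, the other receptor kinase, read 8.75, 8.92, 9.09 and 8.48.

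Of 25 listed nucleic acid sensors, adaptors and IRFs, 17 passed, with 3 at least 2-fold higher and 1 lower with EGF, against 7.98% and 4.96% of all genes. Sting1, the adaptor of DNA sensing, read 9.59 on the starved array, 11.32 on the Hmhi EGF array, 11.18 on the array labelled Miz1 kd and 11.29 on the MYC-TA array. Cgas, the DNA sensor that feeds it, read 7.64, 8.96, 8.53 and 9.22. Tlr3, a receptor for double-stranded RNA, read 9.22, 10.50, 9.65 and 9.87, and Samhd1, a nucleotide hydrolase, read 9.90, 8.19, 8.27 and 8.73. The Sting1 level was alike on all EGF arrays, unlike the members that were lower in a modified line. Irf3, which switches on interferon genes, read 10.29, 10.18, 10.71 and 9.72.

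Of 45 listed interferon-stimulated genes outside the members, 24 passed, and 11 were at least 2-fold higher and 2 lower with EGF. The shares over all genes were 7.98% and 4.96%. In the array labelled Miz1 kd 0 were at least 2-fold higher than in Hmhi EGF and 5 lower, against 0.29% and 2.5% of all genes. The 5 were Psmb9, Sp110, Trim34a, Tap1 and Ifit1bl1. In MYC-TA Trim34a was the 1 gene lower, against 1.65% of all genes. Psmb9, a subunit of the immunoproteasome, read 7.02 on the starved array, 9.54 on the Hmhi EGF array, 7.08 on the array labelled Miz1 kd and 8.84 on the MYC-TA array. Tap1, the peptide transporter, read 7.55, 10.66, 9.42 and 10.00, and the chemokine gene Ccl5 read 7.98, 10.63, 9.98 and 9.91. Tap1 and Sp110 rest on 1 of their 2 sets past the filter. The other set of Tap1 was at 0.43 with EGF and -0.34 in the array labelled Miz1 kd against Hmhi EGF. That of Sp110 was at -0.01 and 0.03. Psmb9 thus had the order of arrays seen for Oasl1, with the array labelled Miz1 kd near starved. Ifit1bl1, a relative of Ifit1, went the other way with EGF, at 9.05, 6.66, 5.63 and 6.64.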

How the data were processed

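Total RNA of 4 cultures, 1 per condition, was measured on Affymetrix arrays from 100 ng of RNA, per the labels' protocols. The authors deposited 1 table of processed values, taken here as log2 signals because its 45101 probe sets spanned 2.94 to 15.12. The log base, the summarization and the normalization are not given in the sources used here. The 4 columns, once sorted, were never over 0.004 apart, which means that equal distributions were imposed and that a change common to all genes is not visible. Values were not centred per gene, and each difference is the array named before "minus" less the array after it.

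Probe sets were named by the platform annotation of 2016, with 1 symbol for 34945 sets, several for 932 and none for 9160 other non-control sets, and 64 sets were controls. The RefSeq gene table held the Entrez identifiers of 34754 sets and changed 0 symbols. For each of 18193 genes the probe set with the highest average over the arrays was used. Genes whose brighter array of the pair lay under its own median of non-control sets were left out of a comparison. Genes at least 2-fold apart were counted. There were no replicates and therefore no tests or p-values, and the number of arrays limits the precision.

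Every member could be named, and those at least 2-fold apart in any of the 6 comparisons were given on all 4 arrays. Other genes came from pathway lists, up to 5 a list by largest difference, plus Zbtb17 and genes of receptor signalling, of which 1 is not reported here. The members and lists were chosen with earlier results of these data known. The alternatives were a 1.5-fold threshold, a filter at the 75th percentile or none, the mean of all sets or only sets ending in a plain _at, a common median, quantile normalization and a loess correction with span 0.4. The steps were tested on simulated data. Values were computed in Python 3.11.15 with numpy 2.4.6, pandas 2.3.3 and statsmodels 0.14.6, and plotted with matplotlib 3.10.9.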

Additional observations from a re-analysis of the deposited data

Results flagged for a closer look

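A probe set that the annotation names for several genes, Isg15 among them, stood outside every comparison and had a log2 difference of 1.56 between Hmhi EGF and Hmhi starved. It read 7.86 on the starved array, 9.42 on the Hmhi EGF array, 8.23 on the array labelled Miz1 kd and 9.33 on the MYC-TA array, and its signal cannot be assigned to 1 of its genes. The control sets of 18S rRNA, also outside the comparisons, had a median difference of 0.833 between the same arrays, with 3 sets measured.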

How the results depend on the processing

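Of 106 values under the alternatives, 101 stayed within the limits set, which for a count is a factor of 1.5. A common median and quantile normalization could hardly move a value, because the sorted columns were already nearly equal. Their part of the 101 is therefore no sign of stability. The 5 that moved were counts. With the filter at the 75th percentile, 9 of 25 members that passed were at least 2-fold higher with EGF in Hmhi cells, 6 of 20 reached 2-fold in MYC-TA over Hmhi starved, 20 of 25 were highest in Hmhi EGF and 11 of 25 lowest in Hmhi starved. This filter leaves fewer genes, and the shares over all genes were not computed under the alternatives. At 1.5-fold, 15 of 38 members were lower in MYC-TA than in Hmhi EGF. The medians kept their sign under every alternative run, from 0.53 to 0.70 with EGF in Hmhi cells, -0.79 to -0.63 for the array labelled Miz1 kd and -0.50 to -0.40 for MYC-TA, both against Hmhi EGF. No paired analysis was possible because every condition was measured on a single array. Differences between cultures cannot be told apart from differences between conditions, and levels below the array median limit the size of a fold.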
